A study of Mus musculus with 88 samples.

Results

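The developmental pluripotency associated (Dppa) genes are a small group of genes named together for their activity in pluripotent cells of the mouse. Their RNA was followed in mouse embryonic stem cells that had or lacked a subunit of Polycomb repressive complex 2 (PRC2), before and during differentiation. The members Dppa2, Dppa3, Dppa4, and Dppa5a were chosen by name. They make up 4 of the 54633 gene identifiers in the expression tables, and each of the 4 is listed in every table. The series holds 88 samples in 3 experiments. In the directed experiment, monolayers labelled E14 of wild-type (WT), Mtf2 null, and Jarid2 null genotype were sequenced undifferentiated and after 5, 24, and 48 h of differentiation toward mesoderm or toward endoderm. There were 2 libraries for each genotype, time, and direction, which makes 48 libraries. In the bulk embryoid body experiment, lines labelled Eed null, Jarid2 null, and Mtf2 null and their background-matched wild-type lines (J1, JM8, and Pcl1-3 wt in that order) were each sequenced at days 0, 2, 4, and 7, which makes 24 samples. Its day 0 columns are headed mono, read here as monolayer, and those of later days eb. In the single-cell experiment, embryoid bodies labelled E14, either WT or null for Eed, Jarid2, or Mtf2, were sequenced at days 0, 4, 7, and 10, with 1 library for each genotype and day and 16 libraries in all. The cells of all groups were kept in serum with leukemia inhibitory factor (LIF) before differentiation. Mtf2 null cells carry a gene trap in both copies of Mtf2 (Mtf2GT/GT), and Jarid2 null and Eed null cells are described as Jarid2-/- and Eed-/-. Each null line was made in an earlier study, and 1 line stands for each genotype, so that a difference between genotypes cannot be told apart from a difference between lines. The study names Pcl1-3 wt, JM8, and J1 as the background-matched wild types of the null lines. The WT of the directed and single-cell experiments is labelled E14, so a difference from it cannot be told apart from a difference of background.

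Dppa2 and Dppa4 are neighbouring genes whose SAP-domain proteins bind chromatin as a pair and prime genes for activation in early embryos and stem cells. Dppa3, also called Stella or PGC7, is a maternal and primordial germ cell factor that protects the egg's genome from loss of DNA methylation and keeps the methylation cofactor UHRF1 away from chromatin in germ cells and stem cells. Dppa5a, also called ESG1, is a small KH-domain RNA-binding protein of pluripotent and germ cells. MTF2 and JARID2 are accessory subunits of separate forms of PRC2, whereas EED is a core subunit that both forms need to place methyl groups on lysine 27 of histone H3.

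The members lie at 3 places in the mouse genome (GRCm38). Dppa4 (ENSMUSG00000058550, chr16:48283733-48294237) and Dppa2 (ENSMUSG00000072419, chr16:48303908-48319723) follow each other on the plus strand of chromosome 16. Dppa3 (ENSMUSG00000046323) lies at chr6:122626410-122630272 on the plus strand, in the neighbourhood of Nanog, Gdf3, Apobec1, Slc2a3, and Foxj2. Dppa5a (ENSMUSG00000060461) lies at chr9:78367052-78368177 on the minus strand. Their coding sequences span 301 codons in Dppa2, 150 in Dppa3, 296 in Dppa4, and 118 in Dppa5a, stop codons not counted. Near copies of these genes bear on how reads were assigned. On chromosome 9 the unprocessed pseudogenes Dppa5c (chr9:78271998-78272583) and Dppa5b (chr9:78245550-78246135) lie close to Dppa5a, and the first 75 bases of the Dppa5a coding sequence, as long as 1 read of the directed series, are shown to make plain how little separates the copies. Capitals mark the bases that differ from Dppa5a.
Dppa5a: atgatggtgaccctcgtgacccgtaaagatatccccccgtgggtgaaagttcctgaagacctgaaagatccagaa
Dppa5b: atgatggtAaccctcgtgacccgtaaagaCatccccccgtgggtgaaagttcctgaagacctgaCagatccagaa
Dppa5c: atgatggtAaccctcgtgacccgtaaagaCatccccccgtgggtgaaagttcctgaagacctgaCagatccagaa
Both pseudogenes carried the same 3 mismatches here, which leaves 96.0% of these bases identical to Dppa5a. Of all windows of 75 bases in the exons, 32.6% of Dppa2, 4.08% of Dppa3, 23.7% of Dppa4, and 19.4% of Dppa5a also occurred in another gene. In the directed libraries the summed reads of the pseudogene copies came to 0.0% to 15.1% of the reads of Dppa2 in the mesoderm series, with a median of 0.793% and more than 5% in 8 of 24 libraries, and to at most 3.87% in the endoderm series. They came to 0.0809% to 8.33% of the reads of Dppa4 over both series, with medians of 5.28% and 4.80%, to at most 0.251% of Dppa5a, and to at most 0.658% of Dppa3. In the single-cell table Dppa5b, Dppa5c, and Dppa3-ps had 0 to 9 UMIs per library.

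Library sizes ran from 9111880 to 16898264 counts in the mesoderm series while those of the endoderm series ran from 9889592 to 16372804. Levels are given in CPM, which are counts scaled to a common library size with the trimmed mean of M values. The Mtf2 transcript checked the Mtf2 label. Undifferentiated WT libraries held 375 to 509 CPM of Mtf2, and Mtf2 null libraries held 30.2 to 38.2 CPM at all times. The Jarid2 label was not borne out as clearly, since undifferentiated libraries labelled Jarid2 null held 297 to 329 CPM of Jarid2 against 352 to 473 CPM in WT. Which part of Jarid2 is lost is not given in the sources used here, and directions drawn from these libraries rest on their label. The stem cell marker Pou5f1 was at 658 to 964 CPM in undifferentiated cells of all genotypes and still at 393 to 698 CPM at 48 h. The lineage labels were checked in the same way. At 48 h in the endoderm series, the 3 endoderm markers Foxa2, Sox17, and Gata4 summed to 6.40 to 9.53 CPM in WT, to 8.00 to 9.47 CPM in Jarid2 null, and to 138 to 166 CPM in Mtf2 null libraries, with Foxa2 at 0.0 to 0.346 CPM and Sox17 at 0.173 to 0.377 CPM in WT. Foxa2 and Sox17 were therefore near 0 in WT cells of the endoderm series, and the summed level was low in WT and Jarid2 null cells beside that of Mtf2 null cells. In the mesoderm series at 48 h, Hand1 was at 4.51 to 15.9 CPM and Tbx20 at 5.82 to 11.9 CPM across genotypes, while the streak markers T, Mixl1, and Mesp1 each stayed under 1 CPM.

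In undifferentiated cells the members spanned 3 orders of magnitude per unit of length. In WT cells the median level per kilobase of exon was 1.88 CPM for Dppa3, 24.6 CPM for Dppa2, 54.5 CPM for Dppa4, and 2460 CPM for Dppa5a, and no library of one member overlapped a library of another. All 4 libraries of a genotype were compared here, 2 from each series. Dppa3 was 5.99-fold higher in Mtf2 null cells, at 10.0 ± 1.72 CPM (SD, n = 4) against 1.66 ± 0.306 CPM in WT (n = 4), and the groups did not overlap. The log2 fold change was 2.58 ± 0.21 (SE, adjusted p = 6.3e-08, edgeR quasi-likelihood test, n = 4 per group). Dppa3 was the 1 of 4 members that passed the limits set for a call, which were 0.001 for the adjusted p and 1 for the size of the log2 fold change, where 14.7% of the 16655 tested genes did. Dppa2 passed the p limit and not the fold limit, at 97.8 ± 5.89 CPM in Mtf2 null and 61.2 ± 12.7 CPM in WT cells (log2 fold change 0.69 ± 0.10, adjusted p = 5.0e-05, edgeR). Dppa4 was at 116.8 ± 11.1 CPM in Mtf2 null and 90.6 ± 5.04 CPM in WT cells (log2 fold change 0.37 ± 0.09, adjusted p = 2.1e-03). Dppa5a was at 1923 ± 372 CPM in Mtf2 null and 1510 ± 176 CPM in WT cells, a difference that did not pass (log2 fold change 0.35 ± 0.14, adjusted p = 0.041). In cells labelled Jarid2 null, 0 of 4 members passed where 1.15% of genes did, and 0 passed with DESeq2 under the same limits, while 1 of the 4, Dppa2, had an unadjusted p under 0.05. Their log2 fold changes from WT were -0.26 for Dppa2, -0.48 ± 0.25 for Dppa3, -0.10 for Dppa4, and -0.22 for Dppa5a, and the adjusted p-values in edgeR ran from 0.10 to 0.46. Undifferentiated libraries with the same genotype and number in the 2 series resembled each other more than duplicates within a series did, with an excess over sampling noise of 1.95 to 2.93 times against 3.36 to 5.98 times. Whether the 4 libraries of a genotype came from 4 cultures was therefore not shown.

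**Figure D1:**
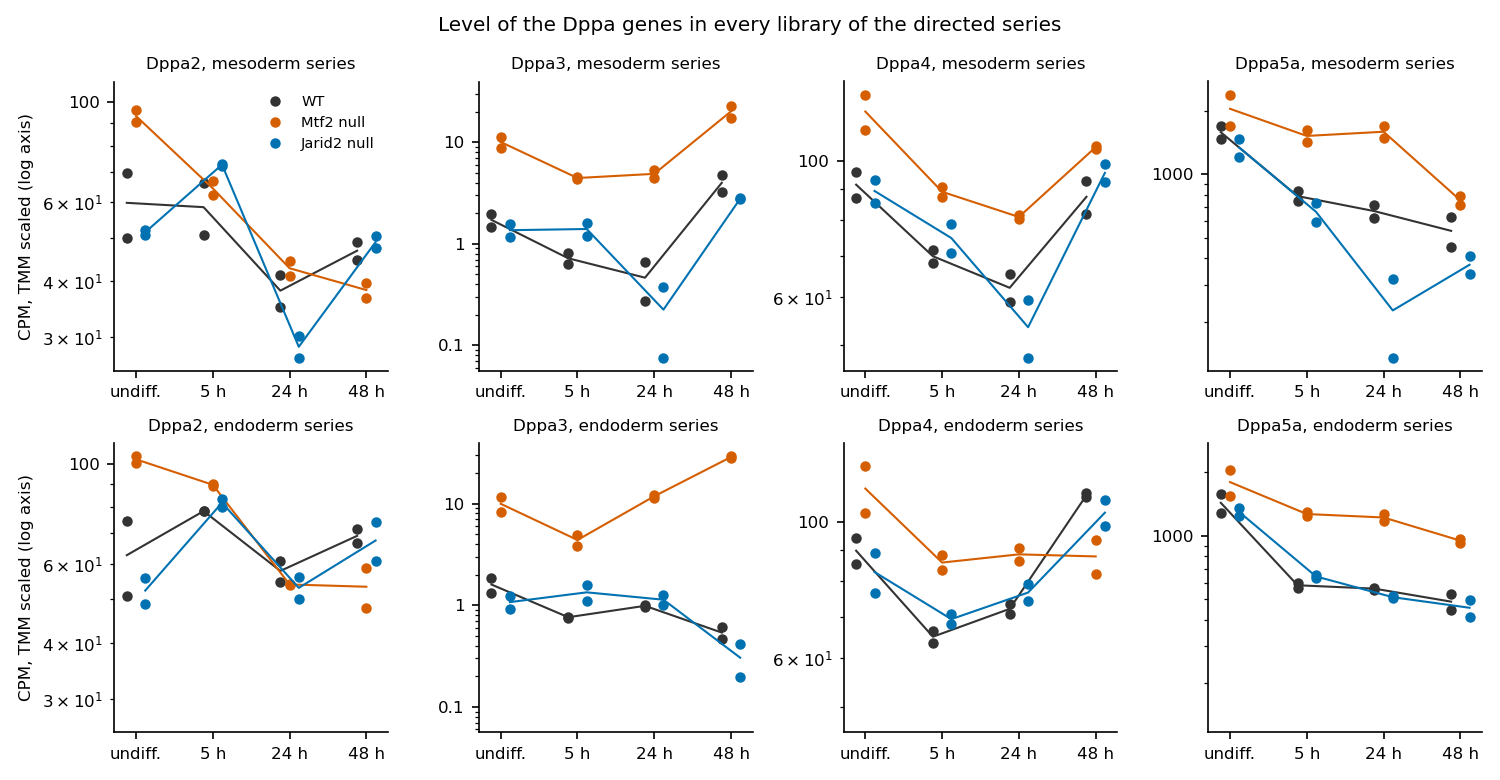
Levels of Dppa2, Dppa3, Dppa4, and Dppa5a in the mesoderm and endoderm series in CPM on a log axis (vertical) at 4 times (horizontal, spaced evenly). Each point is 1 library of WT, Mtf2 null, or Jarid2 null cells, and lines join the means of 2 libraries. The points of Mtf2 null cells lie above those of WT for Dppa3 at every time in both series, and the gap at 48 h in the endoderm series is that between 28.2 to 29.3 CPM and 0.471 to 0.606 CPM.

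Dppa3, the germ cell and maternal factor, was the member that set Mtf2 null cells apart throughout differentiation. In the mesoderm series its level in the 2 WT libraries was 1.48 and 1.96 CPM undifferentiated, 0.813 and 0.627 CPM at 5 h, 0.271 and 0.657 CPM at 24 h, and 4.71 and 3.26 CPM at 48 h. In Mtf2 null cells it was 8.78 and 11.3 CPM, 4.54 and 4.34 CPM, 5.32 and 4.43 CPM, and 17.4 and 22.8 CPM at the same times. Both genotypes were lowest at 5 or 24 h and highest at 48 h, and the Mtf2 null libraries lay above both WT libraries at each time. In the libraries labelled Jarid2 null it was 1.16 and 1.56 CPM, 1.21 and 1.59 CPM, 0.0756 and 0.374 CPM, and 2.75 and 2.81 CPM. These levels are low. Among the 8 WT libraries of the mesoderm series, 3 to 72 reads were counted on Dppa3, and 4 of the 8 had at least 10, whereas Mtf2 null libraries had 51 to 288. The log2 fold change from WT in Mtf2 null cells was 2.53 ± 0.30 undifferentiated, 2.59 ± 0.37 at 5 h, 3.31 ± 0.38 at 24 h, and 2.32 ± 0.26 at 48 h (edgeR, adjusted p between 9.3e-07 and 1.8e-05, n = 2 per group and time). Dppa3 gave all 4 of the calls among 16 tests of the members in this comparison, where 11.1%, 7.56%, 5.72%, and 6.82% of the tested genes were called at the 4 times. With the study's description of the duplicates as technical, these p-values measure the spread between libraries only.

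In the endoderm series WT and Mtf2 null cells moved apart. Dppa3 in WT was 1.33 and 1.87 CPM undifferentiated, 0.772 and 0.754 CPM at 5 h, 1.02 and 0.958 CPM at 24 h, and 0.606 and 0.471 CPM at 48 h. In Mtf2 null cells it was 8.28 and 11.7 CPM, 4.91 and 3.87 CPM, 12.2 and 11.5 CPM, and 29.3 and 28.2 CPM. WT ended at its lowest level and Mtf2 null cells at their highest. The libraries labelled Jarid2 null were at 1.23 and 0.922 CPM undifferentiated and at 0.414 and 0.196 CPM at 48 h, below both WT libraries, and at 1.09 to 1.59 CPM at 5 h, above both. None of their 4 tests against WT was called (adjusted p from 0.35 to 0.93, edgeR), and DESeq2 called none, while the one at 5 h had an unadjusted p under 0.05. The log2 fold change in Mtf2 null cells was 2.63 ± 0.25 undifferentiated, 2.51 ± 0.30 at 5 h, 3.57 ± 0.25 at 24 h, and 5.71 ± 0.28 at 48 h, which is 52.2-fold (edgeR, adjusted p between 7.1e-13 and 1.5e-06, n = 2). At 48 h the WT value rests on 5 and 7 reads and the Mtf2 null value on 392 and 404. In this comparison 6 of 16 member tests were called, all higher, 4 of them of Dppa3, where 11.0%, 7.61%, 6.58%, and 10.5% of genes were called at the 4 times. None of the 8 calls of Dppa3, or that in undifferentiated cells of both series, was lost when any single library was left out. The endoderm markers given above moved with this result, since at 48 h they were high in the Mtf2 null libraries and near 0 or low in the others of the endoderm series. The summed level of Foxa2, Sox17, and Gata4 was already higher in undifferentiated Mtf2 null cells (36.1 to 49.4 CPM over both series) than in WT (7.67 to 10.1 CPM). The summed level of the 3 primordial germ cell markers Prdm1, Nanos3, and Tfap2c was 69.3 to 72.9 CPM in Mtf2 null and 19.3 to 21.2 CPM in WT at 48 h in the endoderm series, with Nanos3 at or under 2.75 CPM in all libraries. The sum thus rested on Prdm1 and Tfap2c. Germline genes as a list, given below, went both ways at this point, with Sycp3 and Mael lower in Mtf2 null cells. The part of either cell type in the level of Dppa3 was not tested, and in bulk RNA more cells of a type cannot be told apart from more RNA per cell.

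**Figure D2:**
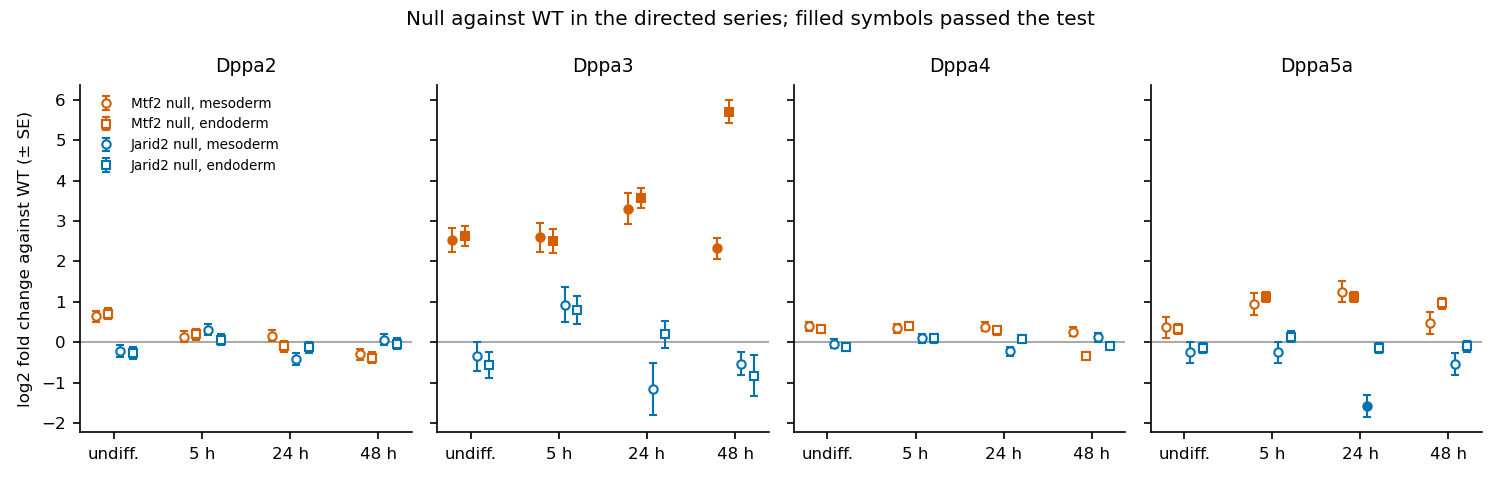
Log2 fold change from WT (vertical, with SE from edgeR) of the 4 members at 4 times (horizontal, spaced evenly) in Mtf2 null and Jarid2 null cells of the mesoderm and endoderm series. Filled points passed an adjusted p of 0.001 and a log2 fold change of 1. Dppa3 is filled at every time in Mtf2 null cells and reaches 5.71 at 48 h in the endoderm series, whereas Dppa5a is filled at 5 and 24 h there and, below 0, at 24 h in Jarid2 null cells of the mesoderm series.

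Dppa5a, the KH-domain RNA-binding protein, fell as WT cells differentiated and stayed higher in Mtf2 null cells. In the endoderm series its level in WT was 1290 and 1580 CPM undifferentiated, 568 and 598 CPM at 5 h, 568 and 556 CPM at 24 h, and 529 and 446 CPM at 48 h. In Mtf2 null cells it was 1554 and 2045 CPM, 1293 and 1246 CPM, 1271 and 1174 CPM, and 969 and 929 CPM. The groups overlapped in undifferentiated cells and were apart at the 3 later times. The log2 fold change from WT was 0.33 ± 0.13 undifferentiated (adjusted p = 0.051), 1.12 ± 0.13 at 5 h (adjusted p = 1.2e-06), 1.12 ± 0.13 at 24 h (adjusted p = 1.3e-06), and 0.96 ± 0.13 at 48 h (adjusted p = 5.8e-06), all by edgeR with n = 2, so that 5 and 24 h passed both limits and 48 h fell short of the fold limit. The first 5 h held most of the fall in WT (log2 fold change -1.30 ± 0.13, adjusted p = 1.0e-06, edgeR). From undifferentiated to 48 h it fell by 1.56 on the log2 scale in WT and by 1.51 in cells labelled Jarid2 null (adjusted p = 1.2e-08 and 1.9e-08, edgeR). In Mtf2 null cells the change was -0.92 ± 0.13 (adjusted p = 1.1e-05), under the fold limit.

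In the mesoderm series the duplicates of Dppa5a spread more. WT libraries held 1465 and 1704 CPM undifferentiated, 830 and 747 CPM at 5 h, 719 and 619 CPM at 24 h, and 628 and 450 CPM at 48 h. Mtf2 null libraries held 1705 and 2389 CPM, 1429 and 1615 CPM, 1491 and 1696 CPM, and 793 and 713 CPM. They lay above both WT libraries at all 4 times, although the nearest undifferentiated pair was 1705 against 1704 CPM. None of the 4 tests passed both limits (log2 fold change 0.37 to 1.25, adjusted p from 1.5e-03 to 0.28, edgeR), and the one at 24 h passed them with DESeq2. The 1 member called in cells labelled Jarid2 null was Dppa5a in this series at 24 h, with 135 and 317 CPM. That is 2.96-fold below WT (log2 fold change -1.57 ± 0.27, adjusted p = 4.5e-04, edgeR, n = 2), and it was the only call among 16 member tests, where 0.37%, 0.0%, 1.97%, and 0.169% of genes were called at the 4 times. In the endoderm series 0 of 16 member tests were called in cells labelled Jarid2 null by edgeR or DESeq2 and 1 had an unadjusted p under 0.05, where 0.742%, 0.0363%, 0.0312%, and 0.125% of genes were called. The Dppa5a duplicates at 24 h of the mesoderm series stood more than 2-fold apart, and the call was lost without the first of them (log2 fold change -1.08), without either WT library at 24 h (-1.46 and -1.67), and when only the 4 libraries compared were fitted (-1.52, adjusted p = 0.015). From undifferentiated to 48 h Dppa5a fell by 1.55 on the log2 scale in WT, by 1.44 in Mtf2 null, and by 1.85 in cells labelled Jarid2 null, and each fall was called in edgeR (adjusted p from 2.1e-05 to 3.6e-04). Each of these 3 calls was lost without at least 1 library: WT without the second library at 48 h or undifferentiated, Mtf2 null without either library at 48 h or the second undifferentiated one, and Jarid2 null without its second library at 48 h.

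Dppa2 and Dppa4, the paired chromatin factors, had no call between genotypes in the directed series. Dppa2 in undifferentiated cells of the mesoderm series was 69.6 and 49.9 CPM in WT and 96.0 and 90.5 CPM in Mtf2 null libraries, and in the endoderm series it was 74.5 and 50.7 CPM against 104 and 101 CPM. By 48 h the order had turned, with 48.9 and 44.6 CPM in WT and 39.7 and 36.7 CPM in Mtf2 null libraries of the mesoderm series, and 66.5 and 71.8 CPM against 47.8 and 58.7 CPM in the endoderm series. None of these 4 differences passed both limits (edgeR, log2 fold change 0.64 and 0.71 undifferentiated, adjusted p = 8.0e-04 and 3.4e-04, and -0.29 and -0.38 at 48 h, adjusted p = 0.13 and 0.040). Within Mtf2 null cells Dppa2 fell in the mesoderm series from undifferentiated to 48 h by 1.29 on the log2 scale (adjusted p = 8.8e-07, edgeR). In cells labelled Jarid2 null it went from 73.1 and 72.3 CPM at 5 h to 26.99 and 30.1 CPM at 24 h in the mesoderm series, a fall by 1.35 on the log2 scale (adjusted p = 4.5e-07, edgeR), and stood at 47.3 and 50.4 CPM at 48 h.

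Dppa4 stayed within 47.7 to 128 CPM in all 48 libraries, and none of its 16 tests between genotypes or 24 tests between times in the directed series passed both limits, in edgeR or in DESeq2. Its adjusted p-values over the 8 tests in Mtf2 null cells ran from 5.8e-03 to 0.078 (edgeR), with log2 fold changes from -0.33 to 0.40. The Mtf2 null libraries lay above both WT libraries at 7 of the 8 combinations of series and time, for example at 87.3 and 90.6 CPM against 68.2 and 71.5 CPM at 5 h in the mesoderm series. The share of all genes that separate in this way was not counted, and with n = 2 such separation can arise without a difference. No rise of Dppa4 is drawn from this count. The 8th was 48 h in the endoderm series, where they lay below, at 82.2 and 93.6 CPM against 111 and 110 CPM (log2 fold change -0.33 ± 0.10, adjusted p = 0.015, edgeR, n = 2).

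Whether the effect of a genotype changed between undifferentiated cells and 48 h was tested as an interaction. In the endoderm series the effect of Mtf2 loss on Dppa3 grew by 3.08 ± 0.43 on the log2 scale (adjusted p = 2.6e-05, edgeR) and its effect on Dppa2 changed by -1.09 ± 0.20 (adjusted p = 4.3e-04). These 2 of 8 tests in that series were called, where 5.24% of genes were called for Mtf2 null and 0.514% for Jarid2 null cells. The Dppa2 call was lost without any one of 5 libraries, with values between -0.84 and -1.11. They were the first Mtf2 null library at 48 h, either undifferentiated Mtf2 null library, the second WT library at 48 h, and the second undifferentiated WT library. For Dppa4 the change was -0.67 ± 0.15 (adjusted p = 2.2e-03) and for Dppa5a 0.64 ± 0.18 (adjusted p = 0.016). In the mesoderm series 0 of 8 were called in edgeR or DESeq2, and 1 of the 8, Dppa2 in Mtf2 null cells at -0.94 ± 0.20, had an unadjusted p under 0.05 (adjusted p = 2.5e-03), where 2.71% of genes were called for Mtf2 null and 0.0545% for Jarid2 null cells. The change of Dppa3 there was -0.21 ± 0.39 (adjusted p = 0.79).

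The change from undifferentiated cells to 48 h was also compared between the 2 directions of differentiation. In WT cells Dppa3 was higher at 48 h than before differentiation toward mesoderm and lower toward endoderm, and the difference between directions was 2.76 ± 0.50 on the log2 scale (adjusted p = 3.7e-04, edgeR). In cells labelled Jarid2 null it was 2.84 ± 0.54 (adjusted p = 5.1e-04), and in Mtf2 null cells, where Dppa3 was higher at 48 h in both directions, it was -0.52 ± 0.30 (adjusted p = 0.57). These were the 2 of 12 tests called, where 1.35% of genes were called in WT, 1.97% in Jarid2 null, and 0.617% in Mtf2 null cells. The WT call was lost without any of 6 of its 8 libraries (2.46 to 2.96) and the Jarid2 null call without any of its 8 (2.39 to 3.43), and the latter also with DESeq2 (2.90, adjusted p = 1.3e-03). Steps in time of Dppa3 were tested as well. Toward mesoderm it rose between 24 and 48 h in all 3 genotypes, by 3.03 ± 0.38 in WT, 2.04 ± 0.26 in Mtf2 null, and 3.66 ± 0.48 in cells labelled Jarid2 null on the log2 scale (edgeR, adjusted p between 6.5e-06 and 9.4e-06). The last of these started from a low level, since in cells labelled Jarid2 null Dppa3 had fallen by 2.67 ± 0.54 from 5 to 24 h (adjusted p = 4.6e-04, edgeR), a call that DESeq2 did not make (adjusted p = 1.5e-03) and that was lost without any of 3 libraries (-1.87 to -2.84). Toward endoderm Mtf2 null cells fell by 1.18 ± 0.21 in the first 5 h and then rose by 1.43 ± 0.21 to 24 h and by 1.28 ± 0.19 to 48 h (edgeR, adjusted p from 3.3e-05 to 3.3e-04). Each of these 3 steps lost its call without 1 library or more of the step, and the first also with DESeq2 (adjusted p = 1.2e-03). In WT the change toward endoderm from undifferentiated to 48 h was -1.55 ± 0.39 (adjusted p = 3.6e-03, edgeR), which did not pass. Of 48 tests between times over all members and genotypes, 10 were called in the mesoderm series, where 6.25% of the tests of all genes were called over the same 12 steps, and 8 in the endoderm series, where 4.52% were.

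Genes connected with the members by function or place were followed as lists. Of 20 genes known from 2-cell-like cells, a rare state of stem cell cultures that DPPA2 and DPPA4 help to switch on, 7 could be tested in undifferentiated cells, and in Mtf2 null cells 4 fell and 1 rose against WT. Over all 16655 tested genes, 1094 fell and 1350 rose by the same limits. Zscan4f, a telomere and genome stability factor, was at 3.05 to 5.62 CPM in WT and at 0.0 to 0.207 CPM in Mtf2 null libraries (log2 fold change -5.72 ± 0.55, adjusted p = 4.9e-07, edgeR). Zscan4a and Zscan4c had 0 reads in all 4 Mtf2 null libraries and were at least 11.7-fold and at least 22.5-fold lower than WT against a floor of 3 counts over the group. The median log2 fold change of the list was -5.23, or -4.49 with genes at 0 set to their bound, against -0.04 over all genes. The Zscan4 genes are near-identical copies, so the share of each one is uncertain. The gene that rose was Zfp750, an epidermal transcription factor (log2 fold change 1.97 ± 0.37, adjusted p = 3.5e-04). In cells labelled Jarid2 null 0 of the 7 were called in edgeR or DESeq2, 0 had an unadjusted p under 0.05, and the median was -0.01. Over all 16655 genes 191 were called there in edgeR.

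Genes of DNA methylation, the process that Dppa3 acts on, divided in undifferentiated Mtf2 null cells, where 14.7% of all genes were called. Of 8 tested, Dnmt3l, a cofactor of de novo methylation, rose by 1.04 on the log2 scale and the de novo methyltransferase Dnmt3a fell by 1.27, with a list median of 0.26. Of 16 pluripotency genes 3 rose and 1 fell, among them Klf5 (log2 fold change 1.76), Tfcp2l1 (1.59), and Zfp42 (-2.47), with a median of 0.50. Of 13 germline genes 4 rose and 4 fell, among them Tex15, a meiotic and silencing factor, at 2.67, Prdm1, a specifier of germ cells, at 2.23, Dnd1 at -1.84, and Nanos3 at -1.71. None of the 5 neighbours of Dppa3 on chromosome 6 and neither of the 2 tested relatives of Dppa5a among 5 listed KH-domain oocyte genes was called in edgeR or DESeq2, with 3 of the 5 and 1 of the 2 at an unadjusted p under 0.05 and medians of 0.17 and 0.34. In undifferentiated cells labelled Jarid2 null the 1 gene called over these lists, where 1.15% of all genes were, was Apobec1, a neighbour of Dppa3 that encodes a cytidine deaminase, at 1.27 (adjusted p = 2.3e-06). At 48 h in the endoderm series, where 10.5% of all genes were called, Mtf2 null cells had 5 germline genes higher and 3 lower of 13, led by Tfap2c at 3.93 and Kit at 2.69 and by Sycp3 at -2.64 and Mael at -1.93. There, 5 of 16 pluripotency genes were higher and 1 lower, led by Klf4 at 2.05, Tbx3 at 1.86, and Zfp42 at -1.72. Of the neighbours of Dppa3, Slc2a3, a glucose transporter (1.56), and Foxj2 (1.17) were higher and Apobec1 (-2.33) was lower. The KH-domain gene Ooep, of the egg's subcortical complex, was higher (1.07), as were Tet3 (1.37) and Dnmt3l (1.13) among the methylation genes, while Dnmt3a was lower (-1.33). In the mesoderm series at 48 h the counts were smaller, with 6.82% of all genes called and Dnmt3b (1.34), Dnmt3l (1.10), and Tex15 (1.86) higher and Apobec1 (-1.45), Zfp42 (-2.21), Sycp3 (-2.50), and Dnd1 (-1.50) lower. None of the 2-cell-like genes was called at 48 h in Mtf2 null cells of either series by edgeR or DESeq2, and 3 in each series had an unadjusted p under 0.05. In cells labelled Jarid2 null, 0 of 48 genes of the 6 lists in the mesoderm series and 0 of 49 in the endoderm series were called at 48 h in edgeR, against 3 and 0 in DESeq2 and 19 and 16 at an unadjusted p under 0.05.

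The genes most alike each member were found by Pearson's r of log2 CPM over the 24 libraries of the mesoderm series among 10958 genes. Libraries of a genotype and time share much of their expression, so these values are a description. For Dppa3 they were Cubn (r = 0.96), an endocytic receptor, Dab2 (0.95), an endocytic adaptor, and Psd4 (0.94), and over the 24 libraries of the endoderm series the values were 0.92, 0.88, and 0.84. For Dppa5a they were Gm2000, the metabolic gene Nme2, and the purine synthesis gene Paics, all at 0.94 and in the endoderm series at 0.89 to 0.90. For Dppa4 they were Sinhcaf, Enpp3, and Vamp8, all at 0.89 and in the endoderm series at 0.75, 0.77, and 0.33. For Dppa2 they were Ect2 (0.90), Nudt4 (0.87), and Bckdha (0.87), and in the endoderm series 0.86, 0.44, and 0.55. None of the members was among the 3 genes most alike another. The neighbouring pair Dppa2 and Dppa4 had r = 0.54 in the mesoderm and 0.18 in the endoderm series, below the 0.86 of Dppa3 and Dppa4 in the mesoderm series, which was 0.18 in the endoderm series.

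In bulk embryoid bodies Dppa3 differed most between lines. There was 1 sample per line and day, and the 4 days served as the replicates of a line. The labels were checked first. Through days 0, 2, 4, and 7 the Mtf2 transcript had levels of 315, 226, 230, and 164 CPM under the Mtf2 null label, of 414, 440, 325, and 386 CPM in the line Pcl1-3 wt, and of 127, 406, 185, and 172 CPM under the Jarid2 null label. The lowest Mtf2 level at day 0 was therefore in the sample labelled Jarid2 null. Eed in the samples labelled Eed null was at 112, 204, 106, and 58.3 CPM, close to the 107, 249, 77.6, and 52.3 CPM of J1. Jarid2 in the samples labelled Jarid2 null was at 593, 662, 250, and 222 CPM, against 503, 638, 277, and 329 CPM in JM8. It was thus above JM8 at days 0 and 2 and below it at days 4 and 7. Mtf2 under the Mtf2 null label was below Pcl1-3 wt at each day. At days 0, 4, and 7 it lay within the range of the wild-type lines (301 to 414, 143 to 325, and 103 to 386 CPM). The Mtf2, Jarid2, and Eed labels were thus not clearly borne out by these transcripts, and directions drawn under them rest on the label. Samples were kept under their labels, and results are also given without day 0. Among the members, Dppa3 had the widest range. In the samples labelled Jarid2 null it was at 28.4 CPM at day 0 and at 1.53, 1.97, and 4.09 CPM later, whereas in JM8 it was at 36.2, 77.9, 38.8, and 57.6 CPM. In those labelled Mtf2 null it was at 1.16 CPM at day 0 and at 66.1, 128, and 82.6 CPM later, against 46.6, 105, 99.7, and 276 CPM in Pcl1-3 wt. Day 0 thus stood apart under both labels, in opposite directions. By their levels of Mtf2 and Dppa3 the day 0 samples of these labels look exchanged, and whether they were was not tested. In those labelled Eed null it was at 96.6, 84.3, 163, and 53.6 CPM, above the 80.2, 53.2, 7.54, and 6.26 CPM of J1 at each day.

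**Figure D3:**
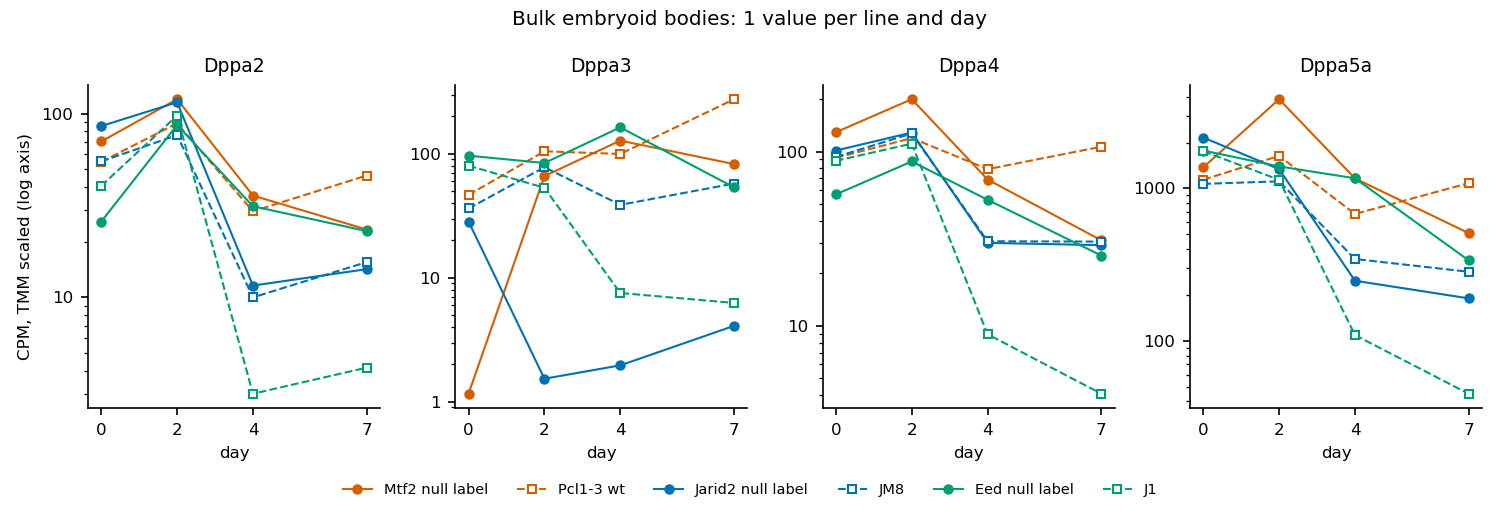
Levels of the 4 members in bulk embryoid bodies in CPM on a log axis (vertical) by day of differentiation (horizontal), with 1 point per line and day. Lines labelled Mtf2 null, Jarid2 null, and Eed null are drawn with the wild-type lines Pcl1-3 wt, JM8, and J1. The J1 line drops lowest by day 7 for Dppa2, Dppa4, and Dppa5a, and Dppa3 crosses between days 0 and 2 in the lines labelled Mtf2 null and Jarid2 null. The day 0 samples of these labels look exchanged, which was not tested.

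With all days, 0 of 12 tests of a line against its wild-type line were called at an adjusted p under 0.05 (limma with the day as a block, n = 4 days) and 0 in an edgeR count test on the recovered reads, while 3 of the 12 had an unadjusted p under 0.05. Of all 15850 genes, 18.7% were called under the Mtf2 null, 15.0% under the Jarid2 null, and 11.5% under the Eed null label. The log2 fold change of Dppa3 in the same order was -1.74 ± 1.14 (adjusted p = 0.31), -3.36 ± 1.14 (adjusted p = 0.052), and 2.08 ± 1.14 (adjusted p = 0.25). Without day 0 the value for the Jarid2 null label was -4.36 ± 0.69, which passed (adjusted p = 8.0e-04, limma), where 18.7% of genes were called, and that for the Mtf2 null label was -0.68, where 21.8% were. Dppa5a under the Eed null label was at 1774, 1396, 1166, and 337 CPM against 1754, 1140, 109, and 44.9 CPM in J1 (log2 fold change 1.65 ± 0.57, adjusted p = 0.065). Dppa2 was at 25.9, 86.7, 31.3, and 23.0 CPM against 40.5, 97.4, 3.00, and 4.16 CPM (1.20 ± 0.49, adjusted p = 0.12), and Dppa4 at 56.7, 87.6, 52.8, and 25.3 CPM against 88.4, 111, 8.92, and 4.06 CPM (1.02 ± 0.49, adjusted p = 0.19). J1 held less of these 3 genes than the line labelled Eed null at days 4 and 7 and more of Dppa2 and Dppa4 at days 0 and 2. Without day 0, the same label had called differences of Dppa2 (1.81), Dppa3 (2.69), and Dppa5a (2.20), with adjusted p from 0.025 to 0.046 (limma), where 9.54% of genes were called. None of the 3 was called when only the 2 lines were fitted without day 0, a fit in which 15 of 13885 genes were. For Dppa2, Dppa4, and Dppa5a the log2 fold changes were between -0.19 and 0.33 under the labels Mtf2 null and Jarid2 null. Of the lists, the germline genes had 4 of 13 called higher under the Eed null label by limma and 2 of 13 called by the edgeR count test, with a median log2 fold change of 0.98 against -0.0061 over all genes. Without day 0 limma called 6 of the 13, all higher. Under the Jarid2 null label limma called 1 germline gene, which was lower, and the count test 2. The 2-cell-like genes had 3 of 16 called under the Mtf2 null label by limma, 2 of them higher, with a median of 1.47 against 0.030, and 8 by the count test. Without day 0 limma called 9 higher and 1 lower of 14. These genes were low, and 2 of them passed the filter on low values when only the 2 lines were fitted without day 0. Limma called 2 of the 16 under each of the other two labels, and the count test 8 under the Jarid2 null and 1 under the Eed null label.

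Over the 3 wild-type lines, the course after day 2 depended on the line. Steps from day 0 also span the change from monolayer to embryoid body, which cannot be told apart from time. Dppa2 went from 54.6, 54.9, and 40.5 CPM at day 0 in Pcl1-3 wt, JM8, and J1 to 88.6, 76.3, and 97.4 CPM at day 2 and to 29.4, 10.0, and 3.00 CPM at day 4. The fall from day 2 to day 4 was called (log2 fold change -3.06 ± 0.60, adjusted p = 7.2e-03, limma with the line as a block, n = 3 lines), where 26.8% of 14553 genes were called, after 12.0% from day 0 to 2 and before 0.124% from day 4 to 7. Dppa5a fell from 1141, 1072, and 1754 CPM at day 0 to 1083, 284, and 44.9 CPM at day 7 (log2 fold change -2.43 ± 0.76, adjusted p = 0.041, limma), where 26.3% of genes were called. The value in Pcl1-3 wt was close at both days, JM8 and J1 were lower at day 7, and the fall was not called without J1 (-0.96). These were the 2 of 16 steps called. The call of Dppa2 was lost without JM8 (-3.17) and that of Dppa5a also without JM8 (-2.66). Without Pcl1-3 wt 6 of 16 steps were called, and without JM8 none was. Dppa4 went from 119, 127, and 111 CPM at day 2 to 79.2, 30.5, and 8.92 CPM at day 4 (-2.02 ± 0.73, adjusted p = 0.066), and no step of Dppa3 or Dppa4 passed.

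The single cells were captured with CEL-Seq2 chemistry, in which each captured mRNA molecule carries a unique molecular identifier (UMI). Libraries held 202 to 347 kept cells and a median of 4997 to 10603 UMIs per cell. The spread between cultures was not measured with 1 library per genotype and day, so no test was made and the 95% intervals cover counting error only. At day 0 the targeted transcripts were lower in the cells of each label, with Mtf2 at 56.3 CPM (here UMIs summed over cells and scaled to the library's UMIs) in Mtf2 null and 793 CPM in WT cells, Jarid2 at 146 CPM in Jarid2 null and 594 CPM in WT cells, and Eed at 11.5 CPM in Eed null and 478 CPM in WT cells. Dppa3 was at 50.2 CPM (42.5 to 58.9) in WT cells at day 0 and at 177 CPM (164 to 191) in Mtf2 null, 111 CPM (100 to 123) in Jarid2 null, and 196 CPM (181 to 211) in Eed null cells. All 3 null libraries were thus above WT, by 3.54-fold, 2.22-fold, and 3.90-fold. At that day 16.9%, 17.2%, and 19.8% of genes stood more than 2-fold from WT in the same libraries.

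The courses then parted. In WT cells Dppa3 was at 55.1, 53.7, and 35.05 CPM at days 4, 7, and 10. In Mtf2 null cells it was at 122 CPM (109 to 136), 24.9 CPM (19.0 to 32.1), and 12.0 CPM (7.86 to 17.6), which crossed from above WT to below it, at 0.464 times WT by day 7 and 0.343 times by day 10. In Jarid2 null cells it was at 106 CPM (93.9 to 120), 160 CPM (142 to 178), and 171 CPM (152 to 191), with the highest ratio to WT of 4.87-fold at day 10. In Eed null cells it was at 432 CPM (406 to 460), 413 CPM (387 to 439), and 61.2 CPM (48.7 to 75.97), or 7.85-fold, 7.69-fold, and 1.75-fold of WT. The day 10 value of Eed null cells rests on 1 cell, which held 59 of its 82 UMIs, and the ratio was 0.87 by the mean over cells and 0.40 with cells thinned to 2500 UMIs. The share of cells with at least 1 UMI of Dppa3 was 23.2%, 13.0%, 11.7%, and 8.88% in WT, 58.5%, 37.2%, 6.10%, and 2.80% in Mtf2 null, 44.2%, 33.6%, 24.8%, and 24.6% in Jarid2 null, and 65.9%, 66.6%, 53.6%, and 8.42% in Eed null cells at the 4 days. After thinning to 2500 UMIs the shares were lower, and the genotypes stood in the same order at each day, for example 10.8% in WT and 31.95% in Mtf2 null cells at day 0. In cluster 15, low in Dppa3, 2.21% of the 136 cells, with a median of 5860 UMIs, had a UMI of Dppa3. Among its 71 Mtf2 null cells 0 did. Free RNA was not measured, so whether the 2.80% of Mtf2 null cells at day 10 exceeded it was not tested.

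**Figure D4:**
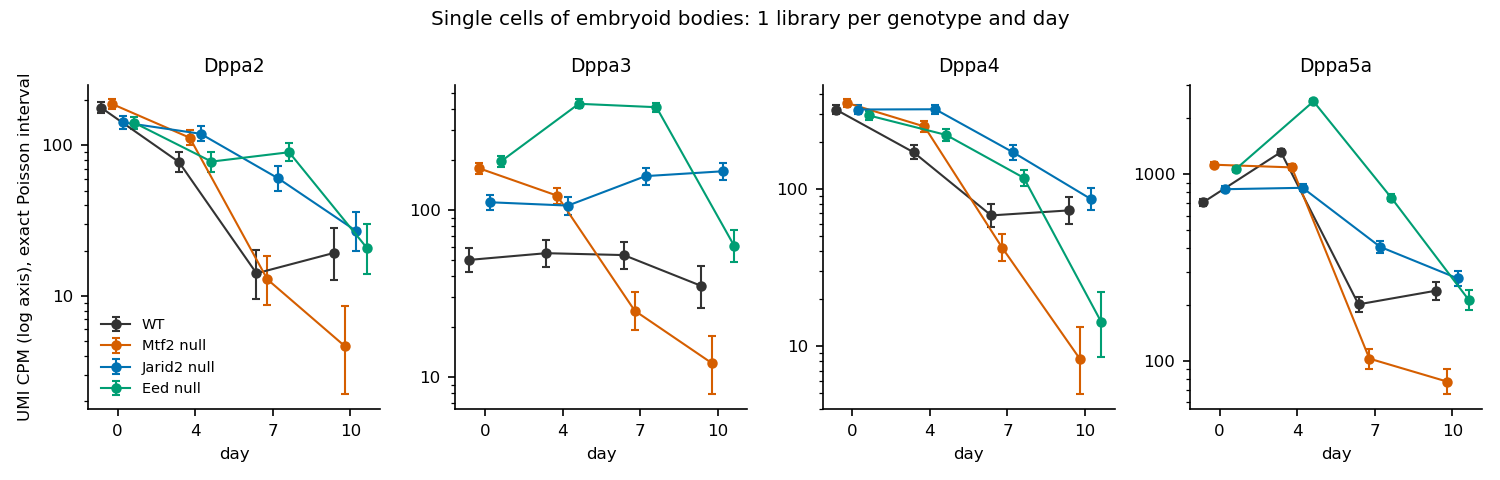
Levels of the 4 members in CPM (UMIs scaled to the library's UMIs) on a log axis (vertical) at days 0, 4, 7, and 10 of embryoid body differentiation (horizontal, spaced evenly) in WT cells and in cells null for Eed, Jarid2, or Mtf2, with 1 library per point and 95% Poisson intervals. For Dppa3 the Jarid2 null line ends highest at 171 CPM and the Mtf2 null line lowest at 12.0 CPM at day 10.

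The other members were lower at day 10 than at day 0 in every genotype. Dppa2 went from 178 to 19.3 CPM in WT, from 188 to 4.63 CPM in Mtf2 null, from 142 to 27.1 CPM in Jarid2 null, and from 142 to 20.9 CPM in Eed null cells. At day 7, WT was at 14.1 CPM and Mtf2 null at 12.9 CPM, while Jarid2 null was at 60.3 CPM and Eed null at 90.0 CPM. Dppa4 went from 319 to 73.0 CPM in WT, from 352 to 8.33 CPM in Mtf2 null, from 320 to 86.4 CPM in Jarid2 null, and from 293 to 14.2 CPM in Eed null cells. Dppa5a was highest at day 4 in WT, with 708, 1314, 201, and 237 CPM, and in Eed null cells, with 1066, 2457, 750, and 212 CPM. It was at 1124, 1088, 103, and 77.3 CPM in Mtf2 null and at 831, 846, 408, and 276 CPM in Jarid2 null cells. Over the 4 members and 4 days, 2 of 16 values of Mtf2 null cells were more than 2-fold above WT and 5 more than 2-fold below, against 6 and 0 in Jarid2 null and 5 and 1 in Eed null cells. Over all genes with at least 10 UMIs, the share over 2-fold from WT in either direction at days 4, 7, and 10 was 17.0%, 13.2%, and 18.3% in Mtf2 null, 18.9%, 16.7%, and 20.1% in Jarid2 null, and 23.7%, 18.1%, and 22.1% in Eed null cells. All 5 low values of Mtf2 null cells were at days 7 and 10. At day 10 some directions depended on the measure, since single cells held much of the total. The ratio of Eed null cells to WT was 1.08 for Dppa2 summed over cells and 0.44 as a mean over cells, and the ratio of Jarid2 null cells to WT for Dppa2 was 1.40 and 0.89.

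By the authors' 22 clusters at a resolution of 2.5, Dppa3 was concentrated in a few. The clusters were made from the expression of the same cells, so these levels are a description without a test. Cluster 10, which held 244 Eed null cells and no other, had 666 CPM (633 to 702) of Dppa3, with a UMI in 80.7% of cells. Cluster 17, with 100 Jarid2 null and 25 Mtf2 null cells, had 625.6 CPM (577 to 678) and a UMI in 92.0% of cells, the highest share of all clusters. After thinning, 64.4% and 76.9% of their cells had a UMI. Next came cluster 9 at 277 CPM, with 257 of 258 cells Eed null, cluster 0 at 199 CPM, and cluster 6 at 195 CPM, all 303 cells of it Eed null. Clusters 4, 11, 14, 15, 18, and 21 were at the other end, with 2.4 to 6.2 CPM. Of the markers, the primordial germ cell genes Prdm1 (115 CPM) and Tfap2c (274 CPM) were higher in cluster 17 than in any other cluster, beside Nanog at 391 CPM, Esrrb at 206 CPM, and Zfp42 at 103 CPM. Nanos3 was not analysed in single cells. Cluster 10 had Nanog at 383 CPM, Zfp42 at 647 CPM, and Esrrb at 105 CPM. The 2-cell-like markers Zscan4c and Zscan4d were at 4.60 and 5.06 CPM in cluster 10, where 0.820% and 0.410% of cells held them, and at 2.67 CPM or less in the others.

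The order of the clusters differed between members. Dppa5a was highest in cluster 9 (2503 CPM) and cluster 10 (1790 CPM), with cluster 17 at 1098 CPM. Dppa2 and Dppa4 were both highest in clusters 0, 3, 5, and 8, with 177 and 347 CPM in cluster 0, 176 and 321 CPM in cluster 3, 160 and 352 CPM in cluster 5, and 154 and 333 CPM in cluster 8, whereas cluster 10 had 125 and 232 CPM and cluster 9 had 51.99 and 193 CPM. In cluster 18 Dppa4 was at 48.5 CPM, with a UMI in 21.1% of cells, while Dppa2 was at 2.31 CPM and Dppa3 at 3.46 CPM. The neighbours on chromosome 16 thus did not always share a level.

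**Figure D5:**
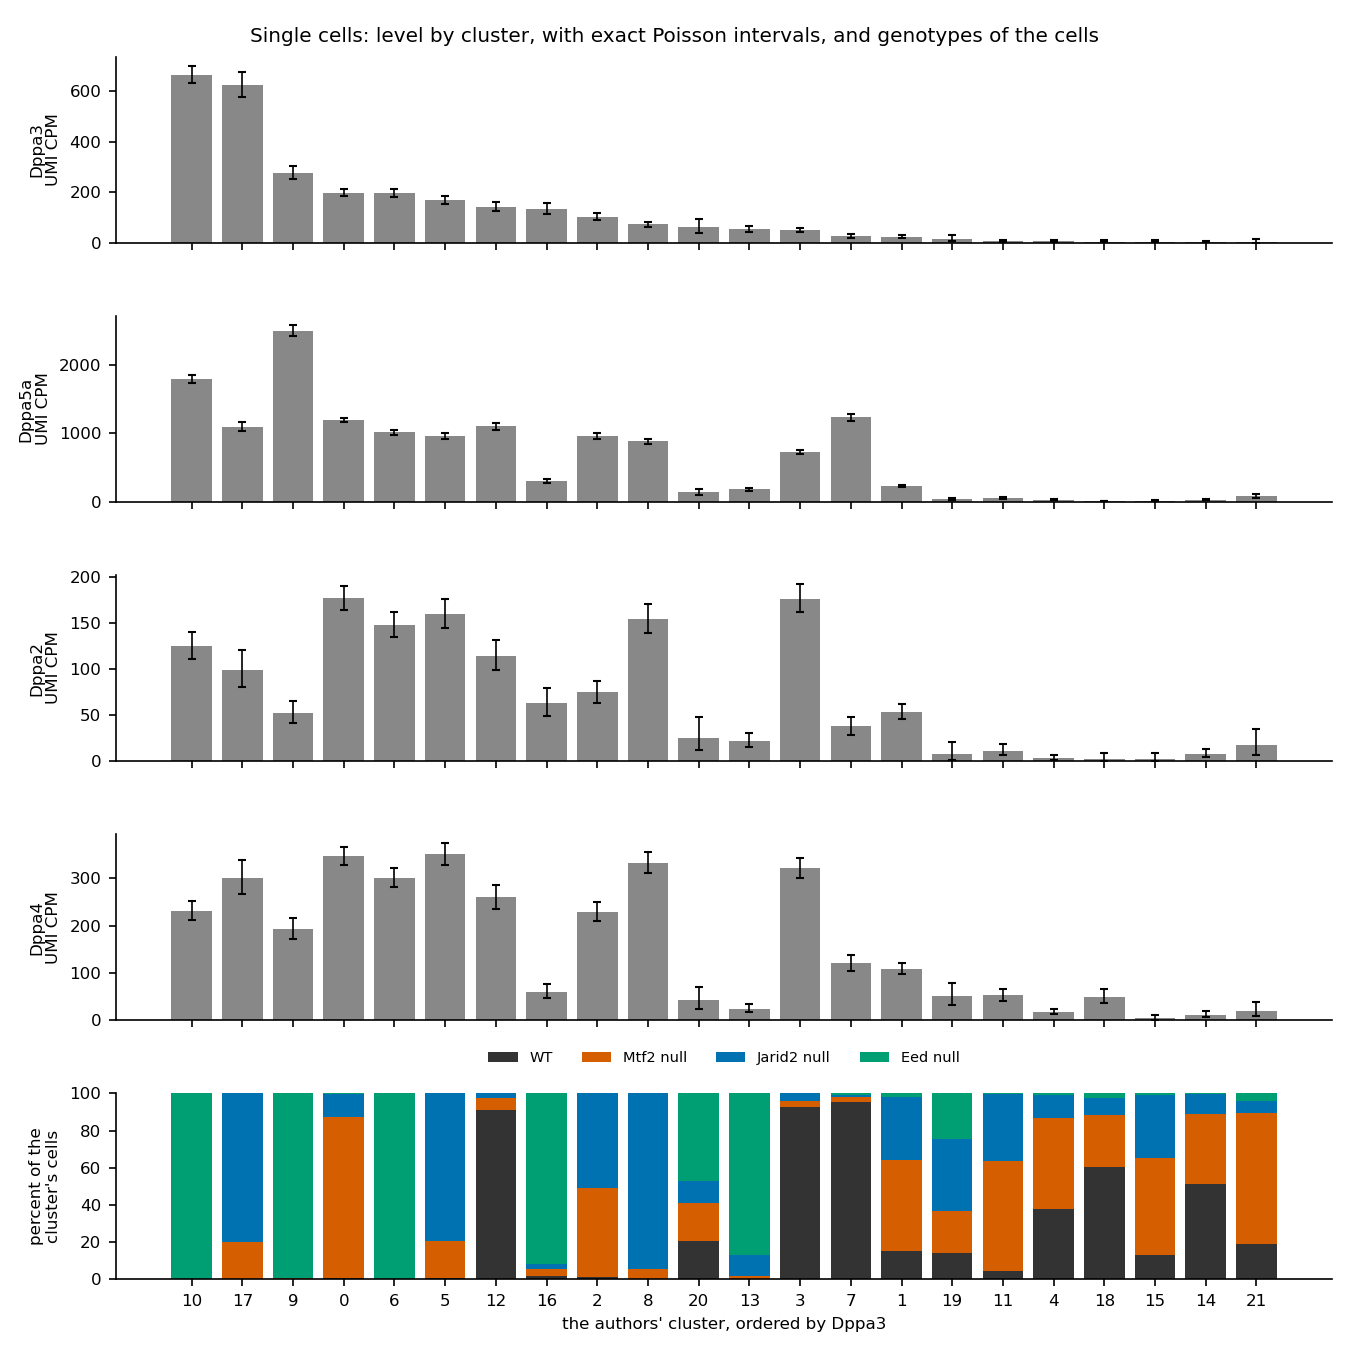
Levels of the 4 members in CPM of UMIs (bars, from 0) in each of the 22 clusters, ordered by Dppa3, and the percentage of each cluster's cells by genotype (stacked bars). Clusters 10 and 17 lead for Dppa3 at 666 and 625.6 CPM and hold Eed null cells alone and Jarid2 null with Mtf2 null cells, respectively.

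Within libraries, the UMIs of Dppa3 were spread unevenly over clusters. In Jarid2 null embryoid bodies cluster 17 made up 4.36%, 11.6%, and 18.6% of cells at days 4, 7, and 10 and held 22.4%, 52.96%, and 80.4% of the UMIs of Dppa3. At day 10 this was 49 cells and 238 of 296 UMIs. At days 4 and 7 cluster 5 held another 54.9% and 42.1% of the UMIs, with 40.2% and 24.8% of cells. In Eed null embryoid bodies cluster 10 made up 7.35%, 25.9%, and 39.5% of cells at days 0, 4, and 7 and held 10.1%, 58.1%, and 83.0% of the UMIs. The level inside that cluster was itself 263, 617, and 860 CPM at those days. At day 10 it held 8.54% of the UMIs, and cluster 13 held 85.4% with 81.7% of cells. That was 70 of 82 UMIs, of which 59 lay in 1 cell, and 10 of the 165 cells had a UMI. In WT embryoid bodies the UMIs lay mostly in cluster 12, which held 73.7%, 86.0%, and 79.6% of them at days 4, 7, and 10 with 29.9%, 24.4%, and 11.2% of cells. In Mtf2 null embryoid bodies at day 4, the 18 cells of cluster 17 (5.44%) held 99 of 333 UMIs (29.7%) and the 132 cells of cluster 2 (39.9%) held 108 (32.4%). At day 7 cluster 1 held 15 and cluster 2 held 13 of the 60 UMIs of Mtf2 null cells. Some clusters held cells of more than 1 genotype. In cluster 17 Dppa3 was at 505 CPM (418 to 604.8) in Mtf2 null and 664 CPM (606.4 to 726) in Jarid2 null cells, and in cluster 0 at 193 CPM (179 to 208) in Mtf2 null and 236 CPM (185 to 297) in Jarid2 null cells. In cluster 2 the order was the reverse, with 130 CPM (109 to 154) in Mtf2 null and 66.6 CPM (51.8 to 84.3) in Jarid2 null cells, and in cluster 5 it was 114 CPM (87.4 to 147) against 181 CPM (163 to 200). Cluster 1 had 33.9 CPM (25.4 to 44.4) in Mtf2 null, 15.3 CPM (8.57 to 25.3) in Jarid2 null, and 2.55 CPM (0.0645 to 14.2), from 1 UMI, in WT cells. The ratios between genotypes thus varied from cluster to cluster, and cells of different days were pooled in them. The well barcodes recur in every library, as the plates share one barcode set.

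The 3 experiments gave different orders of the genotypes for Dppa3, and their WT cells differed. The directed WT libraries held 1.33 to 1.96 CPM undifferentiated, the wild-type lines of the bulk embryoid bodies 36.2 to 80.2 CPM at day 0, and the single WT cells 50.2 CPM at day 0. The scales count total RNA reads, reads after the authors' scaling, and UMIs at the 3' end, so only the orders can be set side by side. Undifferentiated Mtf2 null cells were above WT in the directed series and the single cells, while the bulk sample labelled Mtf2 null at day 0 was below Pcl1-3 wt. That sample and the day 0 sample labelled Jarid2 null look exchanged, so the order at day 0 rests on the labels. Cells labelled Jarid2 null were above WT in the single cells at every day, not called in the directed series, and below JM8 in the bulk samples at every day. Each experiment has its own WT line or scale, and what made the orders differ was not tested.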

How the data were processed

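RNA was measured in 48 directed libraries, 24 bulk embryoid body samples, and 16 single-cell libraries of mouse cells. For the directed series the authors mapped reads to GRCm38 with Bowtie2 and deposited expected counts estimated with Salmon, which were rounded before testing (the mesoderm table was whole in 74.9% of values, the endoderm table in 73.1%). For bulk embryoid bodies the authors deposited a signal, their counts divided by a size factor, in 46 columns. Whole reads were recovered in 45 columns (tolerance 0.02, 100% of values whole), with 3005707 to 22944105 reads per column, and all columns that share line and day entered as their mean, 1 sample. For single cells the authors deposited UMI counts without normalization, made with HTSeq, and their cluster of each of 4949 cells. Versions of Bowtie2, Salmon, and HTSeq are not given in the sources used here. Intervals and floors cover counting error only.

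In edgeR 4.0.16, the 24 libraries of each directed series shared 1 quasi-likelihood fit after TMM scaling and filterByExpr (at least 10 counts, 15 in total), with 18361 and 19261 genes tested. A call required that p, adjusted by Benjamini-Hochberg, lay under 0.001 and that log2 fold change exceeded 1 in size. SE was taken from the F statistic, as the fold change over its square root. A joint fit over both series served undifferentiated cells and the change to 48 h between series. For bulk embryoid bodies limma 3.58.1 was used on log2 CPM (prior count 2, at least 1 CPM in 4 samples) with the day, or for wild-type lines the line, as a block, at an adjusted p under 0.05. DESeq2 1.42.0, another scaling, filters, the replicate block, and leaving out each library were alternatives. Single cells with 1 library per genotype and day were given no test; levels are UMIs summed over cells and scaled to the library's UMIs (CPM), with exact Poisson and Clopper-Pearson 95% intervals, and cells were thinned to 2500 UMIs (seed 7), which left out 492 cells. Doublets were not called, as cells were sorted singly into wells. Scripts were tested on simulated data. Genes other than the members were named by rule: the 3 targeted genes, the 3 genes most alike each member among genes with a mean of at least 5 CPM, and the 2 largest changes in each direction among called genes of a list. The members, lists, and rules were chosen with earlier results of these data known. Sequences and positions came from the GENCODE annotation and genome of GRCm38.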

Additional observations from a re-analysis of the deposited data

Results flagged for a closer look

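The effect of Mtf2 loss on Dppa3 in the endoderm series was larger at 48 h than in undifferentiated cells by 3.08 ± 0.43 on the log2 scale (adjusted p = 2.6e-05, edgeR interaction), with 28.2 to 29.3 CPM against 0.471 to 0.606 CPM at 48 h. The effect on Dppa2 in the same series changed by -1.09 ± 0.20 (adjusted p = 4.3e-04), from Mtf2 null above WT to below it, and this call depended on single libraries. The change of Dppa3 from undifferentiated cells to 48 h differed between mesoderm and endoderm by 2.76 ± 0.50 in WT (adjusted p = 3.7e-04) and by 2.84 ± 0.54 in cells labelled Jarid2 null (adjusted p = 5.1e-04). These rest on 5 and 7 reads of Dppa3 in the WT libraries of the endoderm series at 48 h and on 3 and 6 in those labelled Jarid2 null. No undifferentiated library stood apart from the other 3 of its genotype for any member, in 12 groups of 4.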

How the results depend on the processing

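All calls of Dppa3 in Mtf2 null against WT cells of the directed series held under every alternative run, and of the log2 fold changes of members refitted under the alternatives, 5895 kept their direction and side of the limits, 72 turned sign, 89 came to pass, and 50 no longer passed. With an adjusted p under 0.05 and no fold limit, calls of members rose from 4 to 10 for Mtf2 null and from 1 to 2 for Jarid2 null in the mesoderm series, from 6 to 13 for Mtf2 null in the endoderm series, from 10 to 30 and from 8 to 27 for steps in time, from 0 to 1 and from 2 to 4 for the interactions, and from 1 to 4 in undifferentiated cells. Calls over all genes rose too, to 3.80 and 12.9 times for Mtf2 null and Jarid2 null in the mesoderm series. For Mtf2 null in the endoderm series they rose to 3.80 times, and for steps in time to 5.06 and 5.82 times. For the interactions they rose to 7.21 and 4.80 times, and in undifferentiated cells to 4.73 times. Fitting the compared libraries alone left 0 calls for Jarid2 null in the mesoderm series, and DESeq2 left 1 of 2 between mesoderm and endoderm. Calls over all genes there were 0.154 and 1.12 times the main count. In bulk embryoid bodies, fitting the compared lines alone gave 1 call for the Jarid2 null label with and without day 0, and steps in the wild-type lines fell to 1 call with no filter or no term for the line. Over all genes the calls were 0.941 and 0.750 times the main count for that label, and 0.813 and 0.328 times for the steps. By the mean over cells, 7 in place of 4 pairs of gene and cluster were over 2-fold above all cells. The cause of these shifts was not tested, other than the wider limit itself. Within a series the samples of a number did not pair. Deviations of same-numbered groups at a time had correlations between -0.40 and 0.40 (mesoderm series) or between -0.26 and 0.37 (endoderm series), with 5 of 12 pairs over 0.1 in each. Between the series, undifferentiated libraries of the same genotype and number were more alike than duplicates, as given above. A replicate block gave the same counts as without it, 4, 1, 6, and 0 for the genotypes, 10 and 8 for the steps, 0 and 2 for the interactions, 1 in undifferentiated cells, and 2 between mesoderm and endoderm.

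Leaving out 1 library at a time gave 4 to 5 calls for Mtf2 null and 0 to 1 for Jarid2 null in the mesoderm series, 6 to 7 and 0 in the endoderm series, 8 to 13 and 6 to 9 for the steps, 0 to 1 and 1 to 2 for the interactions, 1 in undifferentiated cells, and 1 to 2 between mesoderm and endoderm. Calls that came to pass were Dppa2 in undifferentiated Mtf2 null cells of the endoderm series without the first WT library (1.02), Dppa5a in Mtf2 null cells at 48 h there without the first WT library (1.08), and the Dppa2 interaction of the mesoderm series without the first undifferentiated WT library (-1.20). Leaving out a day or a line in bulk embryoid bodies gave 0 to 3 calls for the Eed null, 0 to 1 for the Jarid2 null, and 0 for the Mtf2 null label, and 0 (without JM8) to 6 (without Pcl1-3 wt) for the steps of wild-type lines.

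The signs that turned belonged to log2 fold changes that were not called. Dppa2 from undifferentiated to 5 h in WT of the mesoderm series was 0.037 with its pseudogene copies added. Dppa4 in the Jarid2 null interaction of the endoderm series was -0.0060 with DESeq2, -0.023 with no filter, and -0.0057 with RLE scaling. Under the Mtf2 null label Dppa2 was -0.070 in a count test and -0.070 with only its lines without day 0, and under the Jarid2 null label Dppa4 was -0.0052 and Dppa5a -0.24 with only its lines without day 0. Dppa5a from day 0 to 2 in the wild-type lines was 0.21 with the first column of each line and day.

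Without single libraries the lowest and highest log2 fold changes of these results spanned 0 as follows. In Jarid2 null against WT cells of the mesoderm series they were -0.0037 to 0.13 for Dppa2 at 48 h, -0.44 to 0.051 for undifferentiated Dppa2, -0.017 to 0.18 for Dppa4 at 5 h, and -0.10 to 0.037 for undifferentiated Dppa4. In Jarid2 null cells of the endoderm series they were -0.19 to 0.090 for Dppa2 and -0.25 to 0.024 for Dppa5a at 48 h, and -0.51 to 0.058 and -0.27 to 0.014 undifferentiated. In Mtf2 null cells of the mesoderm series at 5 h Dppa2 ran from -0.040 to 0.34. For steps in time of the mesoderm series the values were -0.25 to 0.24 for Dppa2 to 5 h and -0.15 to 0.030 for Dppa4 to 48 h in WT, -0.17 to 0.26 for Dppa3 to 5 h in Jarid2 null, and -0.0050 to 0.26 for Dppa3 and -0.031 to 0.15 for Dppa5a from 5 to 24 h in Mtf2 null cells. For steps of the endoderm series they were -0.49 to 0.055 for Dppa3 in Jarid2 null, -0.11 to 0.00019 for Dppa5a in Mtf2 null, and -0.089 to 0.0062 for Dppa5a in WT from 5 to 24 h, -0.17 to 0.13 for Dppa2 and -0.11 to 0.081 for Dppa4 from 24 to 48 h in Mtf2 null, and -0.10 to 0.46 for Dppa2 to 48 h in WT cells. Interactions of the mesoderm series ran from -0.42 to 0.11 for Dppa3 with Jarid2, and from -0.44 to 0.088 for Dppa3 and -0.12 to 0.37 for Dppa5a with Mtf2. Those of the endoderm series with Jarid2 ran from -0.094 to 0.47 for Dppa2, -0.86 to 0.18 for Dppa3, -0.096 to 0.12 for Dppa4, and -0.11 to 0.18 for Dppa5a. Dppa5a in WT between mesoderm and endoderm ran from -0.26 to 0.24.

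Without single days, values under the Mtf2 null label ran from -0.10 to 0.38 for Dppa2, -0.49 to 0.37 for Dppa4, and -0.011 to 0.78 for Dppa5a, and under the Jarid2 null label from -0.013 to 0.069 for Dppa4 and -0.25 to 0.30 for Dppa5a. Without single wild-type lines they ran from -0.28 to 0.28 for Dppa5a from day 0 to 2, -1.46 to 1.64 for Dppa3 from day 0 to 7, and -0.51 to 0.23 for Dppa4 and -0.75 to 0.22 for Dppa5a from day 4 to 7. Depth limited Dppa3 in WT and Jarid2 null libraries of the directed series, which held 1 to 72 reads of it.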
